A study of Mus musculus with 653 samples.

Results

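D-type cyclins, their kinase partners and the CDK inhibitors of the G1 phase were followed across the lineages of the early mouse liver. The group held 9 genes chosen by name out of the 54195 genes of the raw count table, namely the cyclins *Ccnd1*, *Ccnd2* and *Ccnd3*, the kinases *Cdk4* and *Cdk6*, and the inhibitors *Cdkn1a*, *Cdkn1b*, *Cdkn2c* and *Cdkn2d*. All 9 genes had reads in the table. The single cells came from livers of embryos of Lgr5-EGFP-IRES-creERT2 males, kept on C57BL/6, and MF1 females. The 4 groups were bulk and Lgr5-GFP+ cells at E10.5 (37 to 42 and 38 to 47 cells in each of 5 library pools) and bulk and Lgr5-GFP+ cells at E13.5 (24 to 34 cells per pool, and 80 cells in all). Every cell was sorted as positive for the hepatoblast antigen Liv2 and negative for the endothelial antigen CD31 and the leukocyte antigen CD45, and GFP reported transcription from the *Lgr5* locus in the Lgr5-GFP+ sort. No label ties a cell to an animal or a litter, so each of the 4 groups was treated as 1 sample, no p-value was computed, and every difference given here describes these cells.

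In the G1 phase, D-type cyclins bind CDK4 or CDK6, and the complexes phosphorylate the retinoblastoma protein, which releases E2F factors that turn on the genes of DNA replication. The 3 D-type cyclins are closely related proteins that can stand in for each other in many tissues, and tissues differ in which of them they transcribe. The INK4 proteins, to which p18 (*Cdkn2c*) and p19 (*Cdkn2d*) belong, bind the kinases and keep cyclin D away. The CIP/KIP proteins p21 (*Cdkn1a*) and p27 (*Cdkn1b*) bind the cyclin-kinase complex itself, and *Cdkn1a* is a classical target of p53. Before birth the liver is the main site of erythropoiesis, and hepatoblasts, red cell precursors and mesenchyme divide side by side in it.

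Cells were put in a lineage by more than 10 reads of 1, and only 1, of 4 markers. *Afp*, an albumin-like plasma protein of hepatoblasts, marked 61 cells. *Klf1*, a transcription factor of red cell precursors, marked 160 cells. *Pdgfra*, a receptor of mesenchymal cells, marked 22.5% of all cells, and *Pax3*, a factor of migrating muscle progenitors, marked 30. A further 242 cells had none of the 4 markers and 13 had more than 1. Afp+ cells were mostly E10.5 Lgr5-GFP+ cells (53 of 61), Klf1+ cells mostly E13.5 bulk cells (with 32 and 3 from the E10.5 bulk and E13.5 Lgr5-GFP+ groups), Pdgfra+ cells mostly E10.5 cells (75 bulk and 64 Lgr5-GFP+, against 1 and 7 at E13.5), and Pax3+ cells mostly E10.5 Lgr5-GFP+ cells (23 of 30). Lineage, stage and sort are therefore entangled, and Afp+ and Klf1+ cells shared only the E10.5 bulk (6 and 32 cells) and the E13.5 Lgr5-GFP+ group (2 and 3 cells).

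The labels call every cell a liver hepatoblast, but Afp+ cells were 9.34% of all cells. Each lineage was checked against 6 further marker genes, all of which were highest in their own lineage. The hepatoblast list (*Alb*, *Apoa1*, *Apoa2*, *Hnf4a*, *Fgb*, *Foxa3*) summed to 13609 RPM (reads per 1000000 reads) in Afp+ cells and to 5.92 or fewer in Klf1+ and Pax3+ cells, with 10.7 in Pdgfra+ cells. The erythroid list summed to 2953 RPM in Klf1+ cells, the mesenchymal list to 3805 in Pdgfra+ cells and the muscle progenitor list to 505 in Pax3+ cells. Pax3+ cells also summed to 1602 RPM of megakaryocyte genes, and 2 of the 30 cells, with 1926 and 47616 reads of the platelet chemokine gene *Pf4*, carried nearly all of it, since the sum was 4.0 without them. Cells with no lineage marker held megakaryocyte genes (1402 RPM), mesenchymal genes (1369), erythroid genes (360.5) and endothelial genes (339), and were a mixture.

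The 5 library pools are the only batches the labels name, and each pool held cells of all 4 groups. Depth was alike, between 463347 and 2279700 reads per cell. Detection was not alike, because the median cell had 4515 detected genes in pool 1 and 4488 in pool 2, but 6281 to 6606 in pools 3, 4 and 5. On average 2.39 and 2.09 members had more than 10 reads in a cell of pools 1 and 2, against 4.37 to 4.83 in the other pools. The paper set cut-offs on detected genes that differed between its sorting experiments, and corrected a batch effect between biological replicates. The lowest cell had 3958 and 3148 detected genes in pools 1 and 2, and 4970 to 4994 in the others. No label ties a pool to a sorting experiment, and the part of these cut-offs in the gap was not tested. Values are therefore given over all cells and within pools, a pool counting only with at least 5 cells of the lineage. In all, 365 pairs of index sequences labelled the cells and 230 pairs were used in more than 1 pool, but no cells had identical counts.

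*Cdk4* was the most abundant member per kilobase of exon in each of the 4 lineages, and it was the member read in every cell. *Cdk4* (ENSMUSG00000006728, chromosome 10, 127063534 to 127067920, plus strand, GRCm38) had more than 10 reads in 93.1% of all cells. The promoters of the kinases *Cdk4* and *Cdk6* are shown because these genes encode the alternative partners of the same cyclins and were ordered differently across the lineages. The 250 bases before the RefSeq transcript start of each gene are written 5′ to 3′ on GRCm38.p6, plus strand, with each CACGTG, the E-box bound by MYC proteins and other helix-loop-helix factors, in capitals.
Cdk4, chr10:127063285-127063534: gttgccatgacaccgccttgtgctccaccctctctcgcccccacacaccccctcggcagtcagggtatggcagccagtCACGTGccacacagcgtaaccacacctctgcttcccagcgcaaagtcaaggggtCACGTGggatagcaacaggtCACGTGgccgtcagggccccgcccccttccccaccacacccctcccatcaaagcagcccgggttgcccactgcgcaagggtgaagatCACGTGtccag
Cdk6, chr5:3343643-3343892: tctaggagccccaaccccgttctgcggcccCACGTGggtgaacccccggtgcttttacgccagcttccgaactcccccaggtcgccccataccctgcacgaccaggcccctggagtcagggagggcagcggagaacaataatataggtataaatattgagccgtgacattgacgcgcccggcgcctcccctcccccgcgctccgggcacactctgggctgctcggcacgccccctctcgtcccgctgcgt
*Cdk4* held 4 E-boxes, beginning at -172, -118, -98 and -11 from the start, and *Cdk6* held 1 at -220. CACGTG reads the same on both strands and occurred in 7.15% of 32851 windows of 300 bases, from 250 before to 50 after a start, while 8 windows held 4 or more. Windows were at hand for 7 of the 9 members, 10 windows in all, and 3 of them held an E-box. On either strand, 9 of the 10 windows held the CACCC box CCNCNCCC (49.5% of all windows), none held the GATA motif AGATAA (11.2%) and none the E2F motif TTTCCCGC (1.07%). A match describes the letters only. For *Cdk4* the printed stretch ends at the annotated start of the gene, whereas for *Cdk6* it lies inside the annotated gene, which begins at 3341485 with another transcript.

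The lineages differed in which D-type cyclin they transcribed. *Ccnd1* was highest in Afp+ cells and nearly absent from Klf1+ cells, *Ccnd2* was highest in Pdgfra+ cells, and *Ccnd3* was lowest in Afp+ cells. The E10.5 bulk sort alone held 6 Afp+, 32 Klf1+ and 75 Pdgfra+ cells. There *Ccnd1* was at 114.7, 0.536 and 80.3 RPM in that order. *Ccnd2* was at 94.2, 161.1 and 772 RPM, and *Ccnd3* at 170.6, 267.9 and 288.4. Levels were compared as summed RPM with a pseudocount of 1 RPM, and a gene was counted as past a 2-fold difference when the log2 ratio was 1 or more either way and the higher group had at least 5 RPM. Intervals in brackets are 95% Poisson intervals of the summed reads, or exact Clopper-Pearson intervals of a share of cells. They cover counting error only, since reads were amplified without molecular tags and cells do not replicate a condition.

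*Ccnd1* (ENSMUSG00000070348, chromosome 7, 144929931 to 144939925, minus strand), the D-type cyclin best known as a target of growth factor and WNT signals, was at 160.3 RPM in Afp+ cells (157.5 to 163.2), 66.5 in Pdgfra+ cells (65.3 to 67.7), 21.6 in Pax3+ cells (20.1 to 23.1) and 0.535 in Klf1+ cells (0.433 to 0.653). Within pools it ranged from 139.8 to 260.8 RPM in Afp+ cells and from 0 to 1.83 in Klf1+ cells, so these ranges lay far apart. The Pdgfra+ range, 1.05 to 128.5, stayed below the Afp+ range but overlapped that of Pax3+ cells (17.9 to 34.2). Per cell it ran from 0 to 985 RPM in Afp+ cells with a median of 2.63, and more than 10 reads were found in 28 of the 61 cells (45.9%, 33.1 to 59.2). In Klf1+ cells the median was 0, the highest cell had 35.6 RPM and 3 of 160 cells had more than 10 reads (1.88%, 0.388 to 5.38). The log2 ratio of Klf1+ to Afp+ cells was -6.72 and lay between -7.80 and -6.53 in the 4 pools with both lineages.

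*Ccnd2* (ENSMUSG00000000184, chromosome 6, 127125162 to 127152193, minus strand) was at 569 RPM in Pdgfra+ cells (565 to 572), 237 in Pax3+ (232 to 242), 182.4 in Afp+ (179.4 to 185.5) and 122.98 in Klf1+ cells (121.4 to 124.6). The pool values of Pdgfra+ cells, 468 to 677, lay above those of the other 3 lineages, which overlapped each other (174.8 to 264 in Pax3+, 156.3 to 276 in Afp+ and 51.7 to 242 in Klf1+ cells). The order of Pax3+, Afp+ and Klf1+ cells is thus not separated by the spread between pools. In single Pdgfra+ cells *Ccnd2* ran from 0 to 4192 RPM with a median of 396, and 80.95% of cells had more than 10 reads.

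*Ccnd3* (ENSMUSG00000034165, chromosome 17, 47505051 to 47599691, plus strand), the D-type cyclin prominent in blood cells, was at 314 RPM in Pax3+ cells (308 to 320), 292 in Klf1+ (290 to 295), 265 in Pdgfra+ (263 to 268) and 89.4 in Afp+ cells (87.3 to 91.6). The 3 higher lineages could not be ordered, because their pool ranges (173.4 to 358, 147.2 to 411 and 174.1 to 319 RPM) covered each other. Afp+ cells ranged from 35.6 to 192.5 RPM between pools and were below Klf1+ cells in 4 of 4 pools and below Pdgfra+ cells in 4 of 4. Against Pax3+ cells they were lower in 2 of 3 pools, and in pool 3 Pax3+ cells were at 173.4 and Afp+ cells at 176.2 RPM. The lowest Afp+ value came from pool 2, which held 33 of the 61 cells, and without it the log2 ratio of Klf1+ to Afp+ cells was 1.001 in place of 1.70, and that of Pdgfra+ to Afp+ cells 0.76 in place of 1.56. A processed pseudogene, *Ccnd3-ps*, had 397 reads in all, against 203573 for *Ccnd3*.

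**Figure D1:**
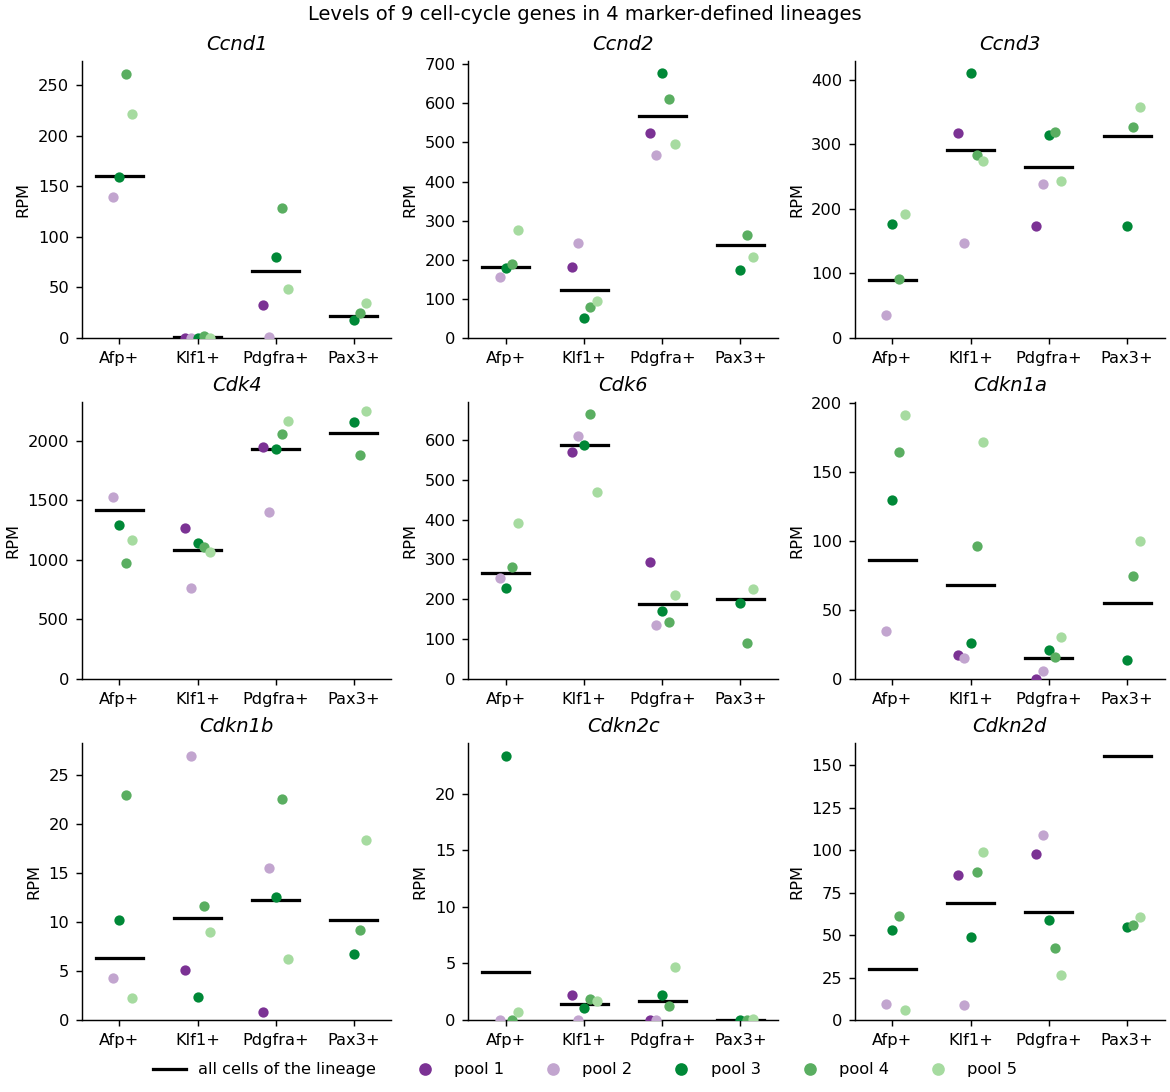
Level of each of the 9 genes in RPM (linear axis from 0) in the 4 lineages set by marker reads. Black lines are all cells of the lineage and points are library pools with at least 5 of its cells. *Ccnd1* sat at 0.535 RPM in Klf1+ and 160.3 in Afp+ cells, the *Ccnd2* points of Pdgfra+ cells lay above all others, and *Cdk6* was highest in Klf1+ cells in every pool.

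Next, the cyclins were compared with each other inside single cells, as reads per kilobase of merged exons, and a cell was said to be led by the cyclin with the highest value if that gene had more than 10 reads. In Klf1+ cells *Ccnd3* led in 63.8% of 160 cells (55.8 to 71.2), *Ccnd2* in 30 cells (18.8%, 13.02 to 25.7) and *Ccnd1* in 1. In Pdgfra+ cells *Ccnd2* led in 83 cells (56.5%, 48.05 to 64.6), *Ccnd3* in 38 (25.9%, 18.99 to 33.7) and *Ccnd1* in 9 (6.12%). In Pax3+ cells *Ccnd3* led in 17 of 30 (56.7%, 37.4 to 74.5), *Ccnd2* in 11 (36.7%) and *Ccnd1* in none, which allows a share of up to 11.6%. Afp+ cells had no such majority, since *Ccnd1* led in 23 of 61 cells (37.7%, 25.6 to 51.04), *Ccnd2* in 19 (31.1%, 19.9 to 44.3), *Ccnd3* in 8 (13.1%) and none of them in 11 (18.03%). Of the D-type cyclin level per kilobase summed over Afp+ cells, *Ccnd1* made up 53.5%, with 46.3 to 64.5% in the pools, and in Klf1+ cells *Ccnd3* made up 71.6%, with 39.5 to 89.4% in the pools. In pool 2 *Ccnd2* was the larger part in Klf1+ cells (60.5%) and led in 6 of 21 cells, against 4 of 21 for *Ccnd3*.

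The lead of *Ccnd1* in Afp+ cells rested on how length was set. With the longest transcript in place of merged exons it led in 27.9% of Afp+ cells and with no length scaling in 26.2%, and in both cases *Ccnd2* led in more cells. As a share of the summed level, *Ccnd1* was 45.2% with the longest transcript, still the largest of the 3, but 37.1% of plain reads, below the 42.2% of *Ccnd2*. In pools 1 and 2 it led in 9 of 36 Afp+ cells (25%) and *Ccnd2* in 11, while in pools 3, 4 and 5 it led in 14 of 25 (56%, 34.9 to 75.6). The leads of *Ccnd3* in Klf1+ and Pax3+ cells and of *Ccnd2* in Pdgfra+ cells were the most common under each of these length choices. For Klf1+ cells the share led by *Ccnd3* was 32.1% in pools 1 and 2, where 43.4% of cells had no cyclin over 10 reads, and 79.4% (70.5 to 86.6) in pools 3, 4 and 5.

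**Figure D2:**
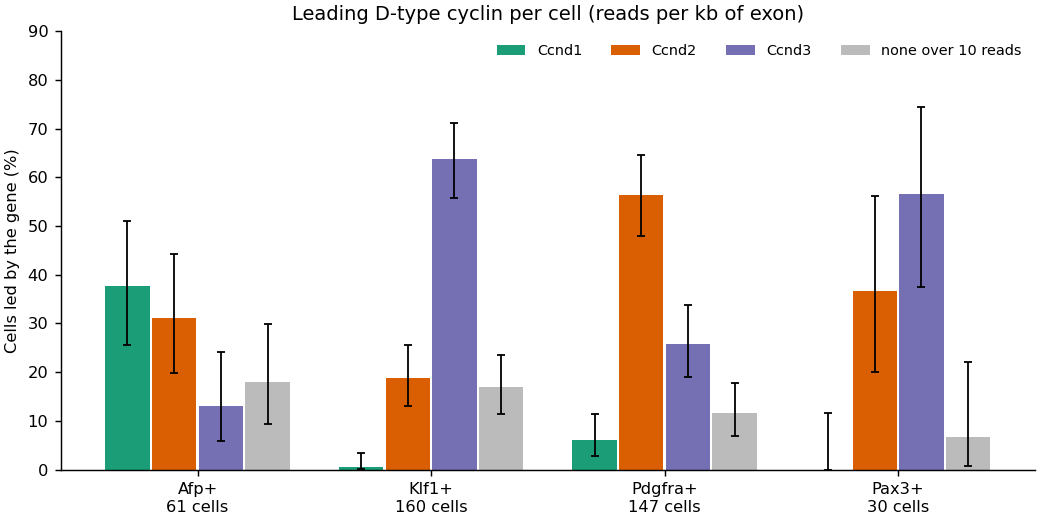
Share of cells (%) of each lineage that were led by *Ccnd1*, *Ccnd2* or *Ccnd3*, by reads per kilobase of exon, or that had none of them over 10 reads. Error bars are exact 95% binomial intervals, which cover counting error only. The highest bars were *Ccnd3* in Klf1+ cells at 63.8%, *Ccnd2* in Pdgfra+ cells at 56.5% and *Ccnd3* in Pax3+ cells at 56.7%, and the *Ccnd1* and *Ccnd2* bars of Afp+ cells overlapped.

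A lead did not mean that the other cyclins were off. All 3 cyclins had more than 10 reads in 17 of 61 Afp+ cells (27.9%), 34 Pdgfra+ cells (23.1%) and 4 of 30 Pax3+ cells (13.3%), but in 2 of 160 Klf1+ cells (1.25%). The most common pattern was all 3 together in Afp+ cells, *Ccnd3* alone in Klf1+ cells (62 cells, 38.8%), and *Ccnd2* with *Ccnd3* in Pdgfra+ cells (55 cells, 37.4%) and Pax3+ cells (14 cells, 46.7%). In Afp+ cells *Ccnd3* had more than 10 reads in 78.6% of the 28 cells with *Ccnd1* and in 36.4% of the rest. These shares move with detection, which differed between pools. Thinned to 100000 reads per cell, a depth that every cell reached, *Ccnd1* had a read in 47.5% of Afp+ cells, 30.6% of Pdgfra+, 16.7% of Pax3+ and 3.75% of Klf1+ cells, in the same order as without thinning. Thinning evens out depth, which was alike between pools, and any read then counted. It therefore does not account for the gap in detected genes between pools.

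*Cdk6* (ENSMUSG00000040274, chromosome 5, 3341485 to 3531008, plus strand), a kinase prominent in blood progenitors, was at 587 RPM in Klf1+ cells (583 to 590), 265 in Afp+ (261 to 269), 200.4 in Pax3+ (195.9 to 204.99) and 188.5 in Pdgfra+ cells (186.5 to 190.5). The lowest Klf1+ pool, 470 RPM, was above the highest Afp+ pool, 392. Afp+ pools did not overlap Pax3+ pools (227 to 392 and 91.5 to 225), whereas Pax3+ and Pdgfra+ pools did. *Cdk4* was at 2065 RPM in Pax3+ cells, 1930 in Pdgfra+, 1418 in Afp+ and 1086 in Klf1+ cells, and no pair of lineages passed 2-fold. Neighbouring lineages in that order overlapped between pools.

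Per kilobase of merged exons *Cdk4* exceeded *Cdk6* in every lineage, but by different factors. The ratio was 7.97 in Klf1+ cells, with 5.42 to 9.79 in the pools, 23.1 in Afp+ cells (12.9 to 26.1), 44.1 in Pdgfra+ cells (28.6 to 62.5) and 44.4 in Pax3+ cells (43.02 to 88.5). The Klf1+ range lay below the others. With the longest transcripts the ratios were 10.4, 30.1, 57.5 and 57.9 in the same order.

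Among the inhibitors, *Cdkn1a* and *Cdkn2d* carried most reads, and they had more than 10 reads in 21.3% and 25.9% of all cells. These shares differed between lineages and pools, and *Cdkn2d* had more than 10 reads in 15 of 30 Pax3+ cells. *Cdkn1a* (ENSMUSG00000023067, chromosome 17, 29090976 to 29100727, plus strand) was at 86.1 RPM in Afp+ cells, 67.9 in Klf1+, 54.95 in Pax3+ and 15.1 in Pdgfra+ cells. In the pools it lay between 34.7 and 190.8 RPM in Afp+ and between 0.206 and 30.1 in Pdgfra+ cells, and Pdgfra+ cells were lower in 4 of 4 pools that held both, at log2 ratios from -3.31 to -2.36. The Afp+, Klf1+ and Pax3+ ranges overlapped. Within pools that held both, Afp+ cells were above Klf1+ cells in 4 of 4 and Klf1+ above Pax3+ cells in 3 of 3. *Cdkn1a* had more than 10 reads in 20 of 61 Afp+ cells (32.8%) and 18 Pdgfra+ cells (12.2%). The median of Afp+ cells was 0 and their highest cell had 622 RPM. The Afp+ share moved with pool, at 3 of 33 cells in pool 2, 6 of 11 in pool 3, 4 of 5 in pool 4 and 6 of 9 in pool 5. Medians in these pools were 0, 46.1, 109.4 and 77.2 RPM.

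*Cdkn2d* (ENSMUSG00000096472, chromosome 9, 21288410 to 21291407, minus strand) was at 155.6 RPM in Pax3+ cells, 69.3 in Klf1+, 63.7 in Pdgfra+ and 29.99 in Afp+ cells. One Pax3+ cell held 43.4% of the Pax3+ reads, and the 3 pools with at least 5 Pax3+ cells had 54.7 to 60.5 RPM, inside the Klf1+ and Pdgfra+ ranges of 8.62 to 98.9 and 26.7 to 108.8. Without the 2 cells rich in *Pf4* the Pax3+ level was 145.8 RPM. Afp+ pools ran from 5.71 to 61.6 RPM, so neighbouring lineages overlapped between pools. Within the E10.5 bulk sort the order was reversed, with 125.5 RPM in 6 Afp+ cells, 58.96 in 32 Klf1+ and 59.1 in 75 Pdgfra+ cells.

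*Cdkn1b* (ENSMUSG00000003031, chromosome 6, 134920401 to 134925513, plus strand) was low in all lineages, from 6.32 RPM in Afp+ to 12.3 in Pdgfra+ cells, with overlapping pools. *Cdkn2c* (ENSMUSG00000028551, chromosome 4, 109660876 to 109667189, minus strand) was below 5 RPM in each lineage, had more than 10 reads in 15 cells of the whole set, and 317 of its 324 reads in Afp+ cells came from 1 cell. At least 1 of the 4 inhibitors had more than 10 reads in 27 of 61 Afp+ cells (44.3%, 31.5 to 57.6), 79 of 160 Klf1+ (49.4%), 73 Pdgfra+ (49.7%) and 22 of 30 Pax3+ cells (73.3%, 54.1 to 87.7), and no cell of these lineages had all 4. Pools 1 and 2, where fewer genes were detected, held 36 of the Afp+, 53 of the Klf1+, 52 of the Pdgfra+ and 6 of the Pax3+ cells. The part of pool make-up in these shares was not tested.

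Counted together, 4 members were past 2-fold between Klf1+ and Afp+ cells, where 49% of 10689 genes were. These were *Ccnd1* (lower in Klf1+ cells) and *Ccnd3*, *Cdk6* and *Cdkn2d* (higher). Between Pdgfra+ and Afp+ cells 5 members were past it (45.6% of genes), with *Ccnd1* and *Cdkn1a* lower in Pdgfra+ cells and *Ccnd2*, *Ccnd3* and *Cdkn2d* higher. Between Pax3+ and Afp+ cells 3 were past it (48.4% of genes), with *Ccnd1* lower in Pax3+ cells and *Ccnd3* and *Cdkn2d* higher. Between Pdgfra+ and Klf1+ cells 4 were past it (51.2%), *Ccnd1* and *Ccnd2* being higher in Pdgfra+ and *Cdk6* and *Cdkn1a* higher in Klf1+ cells. For Pax3+ against Klf1+ cells the count was 3 (50.9%), with *Ccnd1* and *Cdkn2d* higher and *Cdk6* lower in Pax3+ cells, and for Pax3+ against Pdgfra+ cells 4 (36.2%), with *Ccnd1* and *Ccnd2* lower and *Cdkn1a* and *Cdkn2d* higher. In each of these comparisons 8 members had at least 5 RPM in the higher lineage, and their counts of 3 to 5 are near the shares over all genes. With a lineage set by any read of exactly 1 marker in place of more than 10, only 1 member stayed past 2-fold between Klf1+ and Afp+ cells (*Ccnd1*) and between Pdgfra+ and Afp+ cells (*Cdkn1a*). In pools 3, 4 and 5 alone *Ccnd3* (0.94) and *Cdk6* (0.99) were inside 2-fold between Klf1+ and Afp+ cells and *Ccnd2* and *Cdkn2c* were past it instead. Without pool 2, *Cdkn2d* was no longer past 2-fold in Klf1+ or Pdgfra+ against Afp+ cells (0.49 and -0.02). In Klf1+ against Afp+ cells it was also inside 2-fold without pool 5 (0.87) or with more than 50 marker reads (0.78). Without pool 1 it was inside 2-fold in Pax3+ against Klf1+ or Pdgfra+ cells (0.17 and 0.39). Among E10.5 bulk cells *Cdkn2d* was instead higher in Afp+ than in Klf1+ or Pdgfra+ cells.

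Other genes of the G1/S step were read from a list of 30. *Cdkn2a* and *Cdkn2b*, the remaining INK4 genes, stayed at or under 0.749 RPM in every lineage, and *Fbxw7* was listed at 0 in each of them. *Cdkn1c*, which encodes the CIP/KIP protein p57, was at 823 RPM in Afp+, 708 in Pdgfra+ and 647 in Pax3+ cells but at 12.1 in Klf1+ cells. Between Klf1+ and Afp+ cells 27 of the 30 could be compared, and 7 were higher in Klf1+ cells and 5 lower (20.5% and 28.4% of all genes), with a list median log2 ratio of 0.24 against -0.04 over all genes. The higher genes were *Cdkn3*, the pocket protein genes *Rb1* (26.1 against 1.07 RPM), *Rbl1* and *Rbl2*, the E2F genes *E2f2* (67.5 against 23.3) and *E2f4* (450 against 96.7), and *Myc* (308 against 71.03). The lower genes were *Cdkn1c*, *E2f3*, the p27 ubiquitin ligase gene *Skp2* (25.9 against 110.8), *Mycn* (4.51 against 55.2) and *Mycl*. *Mycn* was at 148.8 RPM in Pax3+ and 78.01 in Pdgfra+ cells, where *Myc* was at 108.96 and 55.8.

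Between Pdgfra+ and Afp+ cells 6 of 27 genes were higher and 1 lower (45.6% of all genes were past 2-fold either way), and between Pax3+ and Afp+ cells 5 of 26 were higher and 2 lower (48.4%). Between Pdgfra+ and Klf1+ cells 7 of 27 were higher and 7 lower (51.2%), between Pax3+ and Klf1+ cells 6 were higher and 5 lower (50.9%), and between Pax3+ and Pdgfra+ cells 1 was higher and 4 lower (36.2%). In a list of p53 and 9 of its targets, 6 of 8 genes were past 2-fold higher in Klf1+ than in Afp+ cells, 5 of 9 higher in Pdgfra+ and 5 of 8 higher in Pax3+ cells, with none lower. Of all genes 20.5%, 29.4% and 25.8% were higher in these comparisons and 28.4%, 16.3% and 22.6% lower. *Cdkn1a* itself was not higher than in Afp+ cells in any of the 3 lineages. *Trp53* was at 135.6 RPM in Afp+, 536 in Klf1+, 368 in Pdgfra+ and 351 in Pax3+ cells, and *Ccng1* at 5.24, 52.03, 28.6 and 25.9.

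By stage, bulk cells at E13.5 had less *Ccnd1* and *Ccnd2* and more *Cdk6* and *Cdkn1a* than bulk cells at E10.5. The 4 members were past 2-fold where 44.1% of genes were. *Ccnd2* was at 558 RPM at E10.5 (528 to 597 in the 5 pools) and 100.3 at E13.5 (72.2 to 163.3), a log2 ratio of -2.46, and the ranges did not overlap. *Ccnd1* was at 65.5 and 6.39 RPM, and 1 cell held 93.1% of its E13.5 reads. *Cdk6* was at 291 and 648 RPM, the E10.5 range of 222 to 361 lying below the E13.5 range of 375 to 935, and without pool 2 the log2 ratio was 0.84 in place of 1.15. *Cdkn1a* was at 16.5 and 158.1 RPM, higher at E13.5 in 5 of 5 pools, with more than 10 reads in 17 cells (8.37%) and 44 cells (27.7%). *Cdk4* was at 1897 and 966 RPM, lower at E13.5 in 5 of 5 pools at a log2 ratio of -0.97, just inside 2-fold. *Ccnd3* was at 281 and 311.

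The make-up of the bulk sort moved with stage. Klf1+ cells were 15.8% of E10.5 and 78.6% of E13.5 bulk cells, and Pdgfra+ cells 36.9% and 0.629%. Values summed over a mixed sort do not by themselves separate fewer cells of a type from less RNA per cell. Pdgfra+ cells gave 48.9% of the *Ccnd2* reads of bulk cells at E10.5 and 0% at E13.5. In bulk cells with no lineage marker *Ccnd2* was at 572 RPM at E10.5 and 55.5 at E13.5. The log2 ratios ran from -7.05 to -0.49 in the 2 pools that could be compared. Within Klf1+ cells, the lineage with at least 10 cells at both stages, 1 member, *Cdkn1a*, was past 2-fold (28.4% of genes), at 10.01 RPM in 32 E10.5 cells and 84.02 at E13.5, higher in 3 of 3 pools, with a log2 ratio of 2.95, which was 5.93 without pool 4 and 1.97 without pool 5. *Ccnd2* there had a ratio of -0.52, and *Cdk6* of -0.23, *Cdk4* was at 1087 RPM at E10.5 and 1086 at E13.5, and their pool values lay on both sides of 0. *Ccnd3* led in 22 of 32 Klf1+ cells of the E10.5 bulk sort (68.8%) and 77 of the E13.5 bulk sort (61.6%). Bulk cells with no lineage marker also had more *Cdkn1a* at E13.5, at 429 RPM in 32 cells against 4.03 in 82, with log2 ratios of 6.27 and 6.36 in the 2 pools that could be compared. In these cells the erythroid marker list summed to 1902 RPM at E13.5 and 147.7 at E10.5, and the mesenchymal list to 81.8 and 1125. The part of this shift in the *Cdkn1a* and *Ccnd2* values of these cells was not tested.

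Lgr5-GFP+ cells also had less *Ccnd1* and *Ccnd2* at E13.5 (21.8 against 101.8 RPM, and 134.7 against 308) and more *Cdkn1a* (357 against 43.1) and *Cdkn2c* (7.44 against 0.481), 4 members past 2-fold where 44.7% of genes were. *Ccnd2* was lower in 5 of 5 pools, although the ratio was -0.97 without pool 1, and *Cdkn1a* higher in 4 of 5, the exception being pool 5 with 7 E13.5 cells. *Cdkn2c* rested on few cells, since 1 held 45.4% of its E13.5 reads and 5 of the 80 had more than 10. Cells with no lineage marker gave 97.2% of the *Cdkn1a* reads of E13.5 Lgr5-GFP+ cells, and made up 77.5% of those cells. With cells of no lineage marker left out, the *Ccnd2* ratio turned from -1.19 to 0.35.

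**Figure D3:**
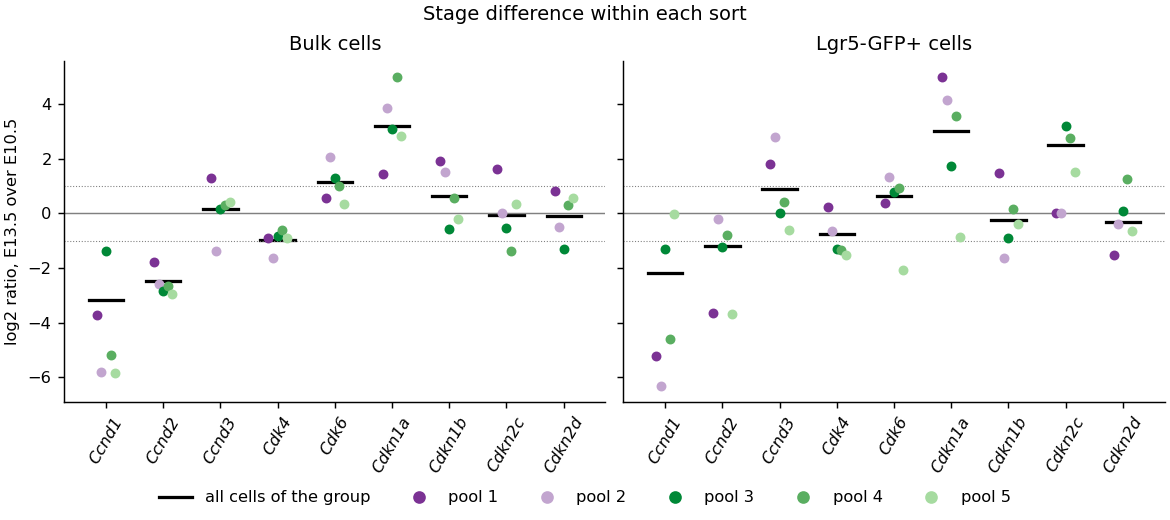
The log2 ratio of RPM at E13.5 over E10.5 for each of the 9 genes in bulk cells (left) and Lgr5-GFP+ cells (right). Black lines are all cells, points are the 5 library pools and dotted lines mark a 2-fold difference. *Ccnd2* lay below 0 and, in bulk cells, *Cdkn1a* above 0 in every pool, with overall bulk values of -2.46 and 3.19.

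Between the sorts at E10.5, *Cdkn1a* alone was past 2-fold (19.5% of genes), at 43.1 RPM in Lgr5-GFP+ and 16.5 in bulk cells, higher in 4 of 5 pools. *Ccnd2* was lower in Lgr5-GFP+ cells in 5 of 5 pools (308 and 558 RPM) and *Ccnd1* higher in 5 of 5 (101.8 and 65.5), both short of 2-fold. Afp+ cells were 25.1% of E10.5 Lgr5-GFP+ and 2.96% of E10.5 bulk cells, and gave 42.2% of the *Ccnd1* reads of the Lgr5-GFP+ cells. Without cells of no lineage marker, 0 members were past 2-fold. Within E10.5 Pdgfra+ cells *Ccnd2* was at 347 RPM in 64 Lgr5-GFP+ cells and 772 in 75 bulk cells, lower in 5 of 5 pools with log2 ratios from -1.79 to -0.44, although it led in 54.7% and 57.3% of these cells. *Mki67*, a gene of dividing cells, was at 299 RPM in the Lgr5-GFP+ and 150.1 in the bulk cells, with more than 10 reads in 78.1% and 45.3%, and the medians of detected genes were 6666 and 5459. Their part in the *Ccnd2* difference was not tested. At E13.5, *Ccnd1*, *Cdkn1a* and *Cdkn2c* were higher and *Cdk6* lower in Lgr5-GFP+ than in bulk cells (4 members, 54.7% of genes). The *Ccnd1* ratio was 1.63, with 52.2% of the Lgr5-GFP+ and 93.1% of the bulk reads in 1 cell each, and it was 2.92 without pool 3 and 1.06 without pool 5. With cells of no lineage marker left out *Ccnd1* was at -0.41 and *Cdkn1a* at -0.76, the opposite sign. *Cdkn2c* was at 1.85, but at -0.98 in pools 1 and 2 alone. The *Cdkn1a* ratio was 1.17, and inside 2-fold without pool 1 (0.90) or pool 2 (0.68). *Cdk6* was lower in 5 of 5 pools, and Klf1+ cells were 3.75% of the Lgr5-GFP+ and 78.6% of the bulk cells.

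Within Klf1+ cells the cyclins and kinases also varied with globin, whose transcripts accumulate as red cells mature. The 160 cells were split into 3 near-equal globin classes of 54, 53 and 53 cells by the summed RPM of the globin genes, with medians of 79.4, 588 and 9513 RPM, so each class is a range and not a cell type. *Cdk6* was at 868, 631 and 238 RPM from the lowest to the highest class, a log2 ratio of highest to lowest of -1.86, with -7.19 to -1.20 in the 4 pools with at least 5 cells in both. *Ccnd3* went the other way, at 214, 156.03 and 519 RPM, with pool ratios from -1.23 to 1.99, pool 2 being the one with the opposite sign. *Cdk4* was at 894, 1174 and 1201 RPM, higher in the highest class in 4 of 4 pools. *Ccnd2* was at 137.3, 152.9 and 76.2 RPM with pools on both sides of 0. *Ccnd3* led in 62.96%, 54.7% and 73.6% of the cells of the classes. The classes differed in pools, and pool 1 gave 22 cells of the middle class, 8 of the highest and fewer than 5 of the lowest. In the middle class *Ccnd3* was at 112.4 and 24.6 RPM in pools 1 and 2, and at 180.04, 257.7 and 224.96 in pools 3, 4 and 5. The part of pools in the middle values was not tested. Each class held cells of both stages (9 to 13 of E10.5), and among E13.5 cells alone the *Cdk6* ratio was -2.27 and that of *Ccnd3* 1.73, the latter above 0 in 4 of 4 pools.

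**Figure D4:**
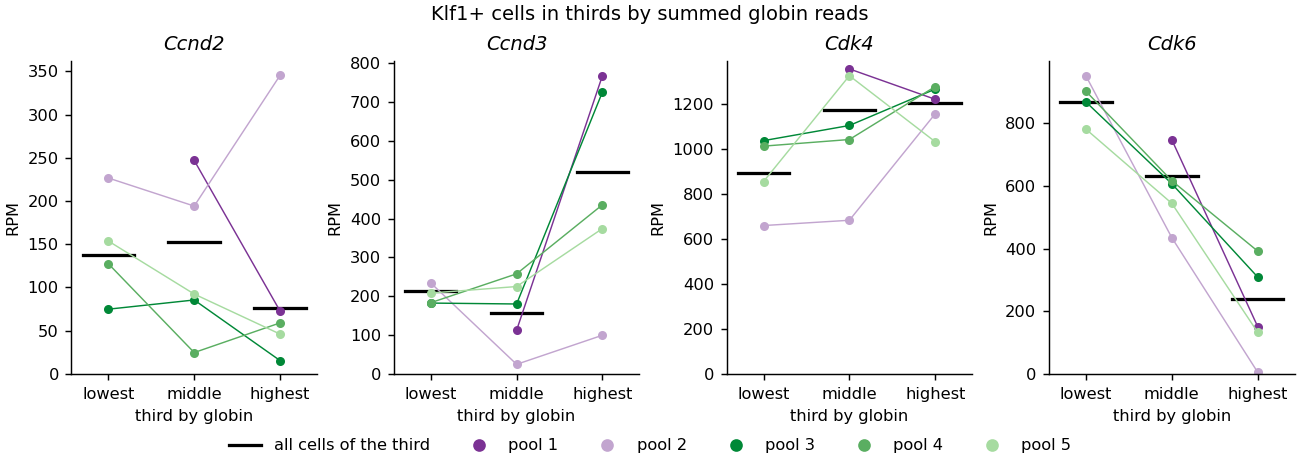
Levels (RPM) of *Ccnd2*, *Ccnd3*, *Cdk4* and *Cdk6* in Klf1+ cells split into 3 classes by summed globin reads. Black lines are all cells of a class and coloured lines join the values of 1 library pool with at least 5 cells in the class. *Cdk6* was at 868 RPM in the lowest and 238 in the highest class, and each of the 4 pools with both ended lower than it began.

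Within each lineage, cells over 10 reads of *Mki67* were set against cells with 0. Pdgfra+ cells gave 86 and 23 cells, and *Ccnd2* was at 461 RPM in the cells with *Mki67* and 941 in those without, with log2 ratios of -1.56 and -1.004 in the 2 pools that held enough of both. *Cdkn2d* was at 66.3 and 8.84 RPM, higher with *Mki67* in both pools. Cells with *Mki67* also had more detected genes, with medians of 6666 and 5265. In Afp+ cells (35 and 9 cells) *Ccnd3* was at 135.01 and 9.27 RPM and *Cdkn1a* at 115.4 and 0.371, but 1 pool alone could be compared. Detected genes differed here too, with medians of 6545 in the Afp+ cells with *Mki67* and 4730 in those without. The part of detection in these differences was not tested. Klf1+ and Pax3+ cells held 3 and 2 cells without *Mki67*, too few to compare. In 23 Afp+ cells with more than 10 reads of *Lgr5* and 23 with 0, the ratios of *Ccnd1* (140.5 and 123.1 RPM), *Ccnd2*, *Ccnd3*, *Cdk4*, *Cdk6*, *Cdkn1a* and *Cdkn2d* were all under 2-fold, and *Cdkn1b* (8.04 and 2.98 RPM) was past it with a log2 ratio of 1.18. *Cdkn2c* was listed at 0 in the cells with *Lgr5* and was at 11.3 RPM in those without, where 1 cell had more than 10 reads. In the 1 pool that could be compared, *Ccnd1* (-3.40), *Ccnd3* (-1.04), *Cdk6* (-0.59) and *Cdkn1b* (-0.71) had the opposite sign. So had *Ccnd2* (0.006), *Cdk4* (0.095) and *Cdkn1a* (0.023), while *Cdkn2d* kept its sign, at -1.47, and *Cdkn2c* was at 0. The cells with *Lgr5* also had more detected genes, with medians of 6644 and 5130.

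Finally, the genes most like each member were read over 19 units of 1 lineage, stage and pool, among 10588 genes with a mean of at least 5 RPM. The units share pools and lineages, so the correlations describe them and carry no test. *Ccnd1* was closest to *Stxbp6* (Pearson's r = 0.99) and to the cytokine receptor gene *Lifr* (0.98), *Ccnd2* to *Alcam* (0.88) and *Foxp2* (0.88), and *Ccnd3* to *Maf1* (0.92) and *Ccndbp1* (0.89). *Cdk4* was closest to *Mest* and *Snai1* (both 0.92) and *Cdk6* to *Tnfaip2* (0.91) and *Ifrd2* (0.90). For the inhibitors the highest values were lower, at 0.77 for *Cdkn1a* with *Zfp148*, 0.79 for *Cdkn1b* with *Slc35b3*, 0.83 for *Cdkn2c*, itself at 1.05 RPM, with *Rab27b*, and 0.83 for *Cdkn2d* with *Taf1b*. The second genes were *Nprl3*, *2210016L21Rik*, *Serpinb6b* and *Dck*. Between the cyclins r was 0.57 for *Ccnd1* with *Ccnd2* and -0.21 for *Ccnd1* with *Ccnd3*, and *Cdk6* had r = -0.63 with *Ccnd1*.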

How the data were processed

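Single cells were sequenced with an adapted Smart-seq2 protocol and Nextera XT libraries. The authors aligned reads with STAR 2.6.0c to GRCm38 (p6 in the submitters' processing notes) with spike-ins, counted unique reads per Ensembl gene with Subread 1.6.2, and filtered cells on mitochondrial reads, spike-ins, depth and detected genes. The deposited values are raw counts of 54195 genes in 653 cells, and 0 columns of values were left unused. Their normalised table was not used here. Groups came from the sample labels.

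The members and lists were chosen with earlier results of these data known. Counts were summed over cells and expressed per 1000000 reads (RPM), per kilobase of merged exons (GENCODE vM21 annotation, GRCm38) between genes. Named genes were the 9 members, listed G1/S genes past 2-fold, the 2 most similar genes per member and lineage markers. Depth was 463347 to 2279700 reads per cell. Strand was not given in the sources used here for counting, and opposite-strand genes overlap 6 members by 273 to 1100 bases. Doublets were not called, since cells were sorted singly. With 1 sample per group no count test was run; edgeR 4.0.16 and DESeq2 1.42.0 supplied scaling factors as alternatives. The code of the calls was run on simulated counts with known changes. These were drawn without the spread between cells and pools seen here, so they check the code and not the calls.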

Additional observations from a re-analysis of the deposited data

How the results depend on the processing

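Of the recomputed values, 9 of 61 shares of cells left the main interval, 18 of 160 counts of members moved by more than 1.5 times, and 39 of 539 log2 ratios moved and 11 changed sign. In pools 1 and 2 alone the share of cells led was 25% for *Ccnd1* in Afp+, 32.1% for *Ccnd3* in Klf1+ and 44.2% for *Ccnd2* in Pdgfra+ cells, the *Ccnd1* log2 ratio of Pax3+ to Klf1+ cells was -0.066, that of *Cdkn1a* in Pax3+ to Pdgfra+ cells -1.29 and that of *Cdkn2c* between the E13.5 sorts -0.98, and counts of members past 2-fold were 5 (Pax3+ against Afp+), 2 (E10.5 sorts) and 5 (Klf1+ by stage). In pools 3, 4 and 5 alone the shares were 56% for *Ccnd1* in Afp+ and 79.4% for *Ccnd3* in Klf1+ cells, and *Cdkn2d* in Pax3+ against Klf1+ cells was -0.44. With a lineage set by any marker read, *Ccnd1* led 18.97% of Afp+ and *Ccnd3* 33.3% of Pax3+ cells, the counts were 1 (Klf1+ and Pdgfra+, each against Afp+) and 4 (Klf1+ by stage), and *Cdkn2d* in Pax3+ against Afp+, Klf1+ and Pdgfra+ cells was -0.38, -0.55 and -1.04. With any read enough for a lead *Ccnd3* led 71.9% of Klf1+ cells, and with the longest transcript *Ccnd2* led 46.9% of Pdgfra+ cells. The Klf1+ stage count was 2 with the mean over cells, TMM factors, DESeq2 size factors, a pseudocount of 0.1 RPM, more than 50 marker reads or cells of 2 markers counted in each. In alternatives chosen after seeing the data, leaving out cells with no lineage marker gave 0 members between the E10.5 sorts, *Ccnd2* at 0.35 between stages of Lgr5-GFP+ cells, and *Ccnd1* at -0.41 and *Cdkn1a* at -0.76 between the E13.5 sorts, and leaving out the Pax3+ cells rich in *Pf4* gave 5 members against Klf1+ cells. The cause was not tested.

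Leaving out 1 pool at a time gave 33.9 to 50% for *Ccnd1* in Afp+, 58.7 to 70.5% for *Ccnd3* in Klf1+, 53.9 to 60.2% for *Ccnd2* in Pdgfra+ and 47.4 to 60.9% for *Ccnd3* in Pax3+ cells. Counts ran from 3 to 5 for Pax3+ against Afp+ cells (5 without pool 2) and from 1 to 2 for Klf1+ by stage (2 without pool 1, 4 or 5), and *Cdkn2d* in Pdgfra+ against Afp+ cells from -0.0225 (without pool 2) to 1.36. No paired analysis was possible because the labels name no animal or litter, each group was 1 sample and replicate numbers only name cells. The number of cells, the few reads of *Cdkn1b* and *Cdkn2c* and the sparser pools 1 and 2 limit these values.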
